A study of Equus caballus with 8 samples.

Results

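Amino acid transporters carry amino acids, and in some families betaine, taurine or creatine, across the plasma membrane and the membranes of organelles. The genes described here are those of the SLC1, SLC3, SLC6, SLC7, SLC36, SLC38 and SLC43 families, chosen by gene symbol, and they numbered 34 of the 15266 named genes measured. Of these 34, 4 belonged to SLC1, 2 to SLC3, 6 to SLC6, 10 to SLC7, 1 to SLC36, 8 to SLC38 and 3 to SLC43. SLC7A6OS matched the symbol rule but is the gene opposite SLC7A6 on the other strand and is no transporter, which leaves 33 transporter genes. Whether the reads were counted by strand is not given in the sources used here, so reads of SLC7A6 and SLC7A6OS cannot be told apart where those genes overlap. All 34 symbols were found in the RefSeq gene table of the horse assembly TB-T2T, which names 58 symbols in these 7 families. The genes of that table without a row in the count table were not analysed here.

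The cells were equine BM-MSCs, mesenchymal stem cells that grow out as adherent stromal cells from sternal bone marrow, taken from healthy horses. RNA came from 4 horses (D, J, L and W), and for each horse cells grown with recombinant human TGF-β2 at 1 ng/ml were sequenced beside untreated cells, which makes 4 treated and 4 untreated libraries paired within horse. All cultures received low-glucose medium with fetal bovine serum, antibiotics, added L-glutamine and basic fibroblast growth factor, and cells were taken at passage 3 or 4, the labels giving TGF-β2 from isolation onwards and the study's methods over 3 passages. No genetic change was made in either group, the cells were uncloned cultures, and no freshly isolated marrow was compared. RNA was measured, and neither transport nor transporter protein was.

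Cells take up most amino acids by exchange or by coupling to the sodium gradient. Carriers of the SLC1 and SLC38 families load the cell with glutamate, glutamine, serine and alanine, and heteromeric exchangers of SLC7 then trade glutamine for leucine and other large amino acids or glutamate for cystine. Such exchangers consist of an SLC7 light chain, which moves the substrate, and an SLC3 heavy chain, which brings the light chain to the membrane. In stromal cells and fibroblasts, which secrete collagen, imported glycine, proline, glutamine and arginine feed matrix synthesis, and amino acids inside the cell regulate the kinase complex mTORC1. When amino acids are short, the transcription factor ATF4 raises many transporter genes.

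The untreated libraries held 40044240 to 57228675 reads assigned to named genes (median 44390354.5), and the treated libraries 39184554 to 46634539 (median 43212788). Values are normalized counts, in which the authors divided the reads by 1 size factor per library. A count of 3 reads, taken as the floor, corresponded to 2.02 to 3.60 normalized counts and covers counting error only. The cultures expressed the stromal markers ITGB1, CD44, THY1, ENG and NT5E in all 8 libraries. Among 7 stromal markers measured, THY1 and VCAM1 were called lower after treatment. Of 9 leukocyte markers 6 had a row, with summed levels of 668 to 2943 normalized counts in untreated and 531 to 870.4 in treated libraries, most of it CD68. The T cell marker CD3E was at 0 in all treated libraries and in the untreated libraries of horses D and L. The untreated library of horse J had the highest leukocyte sum, 2943. Endothelial markers, with 2 of 6 measured, summed to 7.10 to 26.3 and to 30.0 to 55.7 normalized counts, and the erythroid and haematopoietic list, with HBA measured of 7, to 6.09 to 41.5 and 18.4 to 208. Of 5 leukocyte markers tested limma called 0, and 1 was lower once the model held the horse as a block (7.31% of all genes). DESeq2 with the block called 2 lower. Of 2 endothelial markers limma called 1 higher (5.59% of all genes) and edgeR 0. In bulk RNA, fewer cells of a type and less RNA per cell cannot be told apart.

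Most of the transporter genes that changed with TGF-β2 rose. The higher genes were SLC7A5, SLC7A1, SLC7A3, SLC7A11, SLC3A2, SLC1A5, SLC1A3, SLC38A1 and SLC38A5, which encode carriers of large neutral, cationic and acidic amino acids, cystine and glutamine. SLC38A4 and SLC1A2 fell. Of the 34 genes, 32 reached 10 normalized counts in at least 4 libraries and were tested with limma, without a term for the horse. A gene was called with a Benjamini-Hochberg adjusted p under 0.05 over all 14907 genes tested and an absolute log2 fold change over 1. On this rule 9 of the 32 genes (28.1%) were called higher, where 5.59% of all genes tested were, and 2 (6.25%) were called lower, against 5.87% of all genes. SLC7A3 passed the filter through its treated libraries and SLC1A2 through its untreated ones, so both had to differ in order to be tested. Over the 30 transporter genes that reached 10 normalized counts in 2 or more libraries of each group, a limit set after the values were seen, 8 (26.7%) were called higher and 1 (3.33%) lower, against 4.89% and 5.13% of all 14427 such genes. The median log2 fold change of the 32 genes was 0.25, and that of all 14907 genes 0.01.

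Once the model held the horse as a block, 11 of the 32 genes were called higher and 3 lower, where 6.83% and 7.31% of all genes were called. The genes added were SLC6A9, SLC6A12 and SLC43A2. The treated and untreated libraries did not overlap in 9 of the 32 genes with treatment higher and in 4 with treatment lower, against 13.9% and 13.9% of all genes tested. The change had the same sign in all 4 horses in 24 of the 32 genes (75%), and in 51.9% of all genes. SLC7A3 and SLC1A2, which had to differ in order to be tested, are among the block calls, the genes without overlap and these 24 genes. When each library was instead scaled to the same total, the median log2 fold change of all genes was -0.30 and 27.6% of all called genes were higher, in place of 48.8% under the deposited scaling. The counts among the transporter genes were then 8 higher and 3 lower. SLC1A3 dropped out of the higher genes at a log2 fold change of 0.97, and SLC38A2 joined the lower ones at -1.17.

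**Figure D1:**
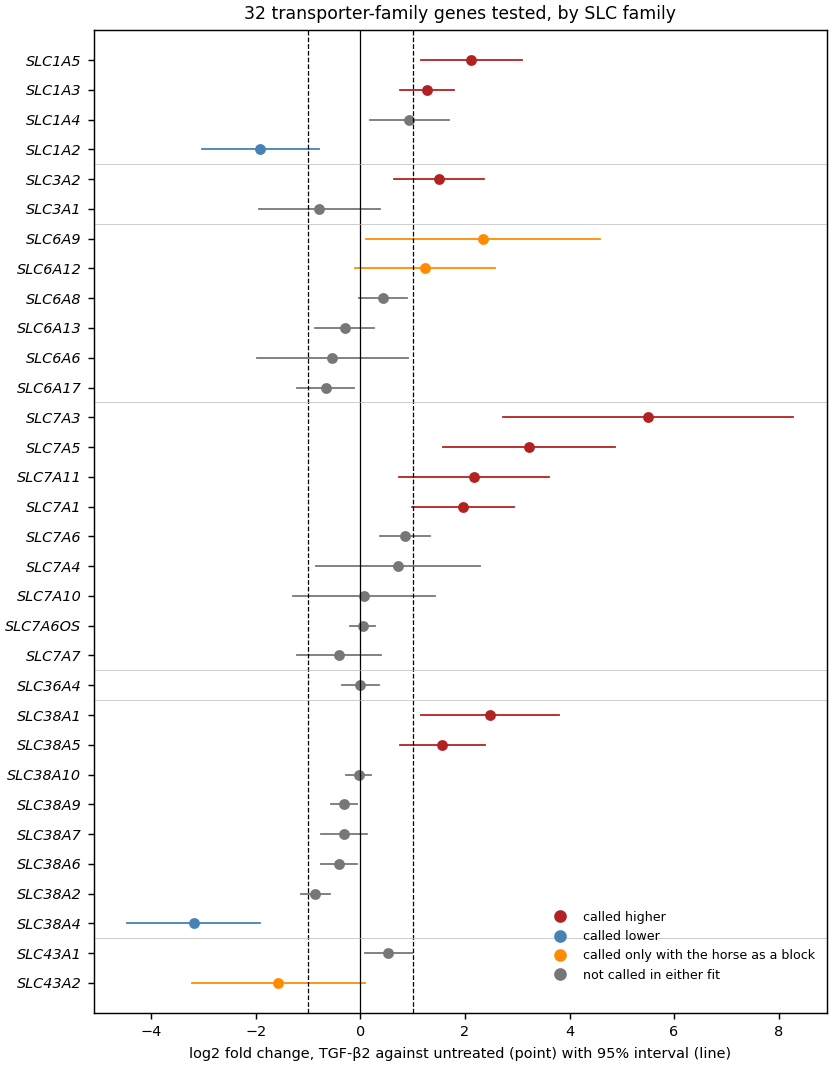
Log2 fold change, TGF-β2 against untreated, of the 32 genes tested (points) with 95% intervals from limma (lines), ordered within each SLC family, and dashed lines at the fold change threshold of 1 in either direction. The 9 genes in red lie between 1.28 and 5.50 and the 2 in blue at -1.92 and -3.19, while orange marks the 3 genes called with the horse as a block alone.

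The SLC3 family holds the heavy chains. SLC3A2, the heavy chain CD98hc that pairs with most SLC7 light chains, rose after treatment. It had 1485, 2189, 5765 and 1902 normalized counts in the untreated cells of horses D, J, L and W, and 5954, 6658, 7821 and 7421 in their treated cells. All treated libraries lay above all untreated ones, but the untreated library of horse L came close to the lowest treated one. The means were 2835 ± 1974 and 6964 ± 828 (SD, n = 4), and the gene rose by 1.502 on the log2 scale (standard error 0.38, adjusted p = 0.0239). The call was lost with horse D, J or W left out (adjusted p = 0.109, 0.0688 and 0.141) and with edgeR (adjusted p = 0.0511). With the horse as a block SLC3A2 was called (adjusted p = 0.0143), and it was lost there with horse D or W left out (adjusted p = 0.0683 and 0.0767). SLC3A1, the heavy chain of the cystine transporter of kidney and gut, had few reads. Its untreated libraries held 42.6, 11.4, 23.6 and 37.5 normalized counts and its treated ones 17.9, 8.56, 26.4 and 10.8. The groups overlapped, and the log2 fold change of -0.78 had a 95% interval of -1.94 to 0.37 (adjusted p = 0.300).

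Among the light chains, SLC7A5 showed the largest difference. SLC7A5 encodes LAT1, the exchanger that with SLC3A2 imports leucine and other large neutral amino acids. Untreated cells of horses D, J, L and W held 463, 1166, 7648 and 2012 normalized counts, and treated cells 12861, 16882, 16111 and 18223. The treated libraries were alike and all higher, whereas the untreated ones were spread widely with horse L far above the others. The means were 2822 ± 3279 and 16019 ± 2279 (SD, n = 4), and the ratio of treated to untreated means was 5.68. The log2 fold change was 3.23 (standard error 0.72, adjusted p = 0.0160). Within horses the log2 change was 4.79 in D, 3.85 in J, 1.07 in L and 3.18 in W. With horse D, J or W left out the adjusted p was 0.0630, 0.0558 and 0.0961, so the call then failed, and with horse L left out it held. With the horse as a block SLC7A5 was called (adjusted p = 0.0135), and it was lost there with horse D or W left out (adjusted p = 0.0541 and 0.0716).

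SLC7A11 encodes xCT, the light chain that exchanges intracellular glutamate for cystine. Its untreated libraries held 82.7, 283, 749 and 261 normalized counts and its treated ones 748, 825, 1720 and 1827, in the order D, J, L and W. The gene rose in every horse, though the untreated library of horse L just overlapped the treated library of horse D. Its log2 fold change was 2.18 (standard error 0.63, adjusted p = 0.0386). SLC7A11 was lost with horse D, J or W left out (adjusted p = 0.0806, 0.0694 and 0.183), with edgeR (adjusted p = 0.0599) and without the intensity trend (adjusted p = 0.0505). With the horse as a block SLC7A11 was called (adjusted p = 0.0109), and it was lost there with horse W left out. The other light chains passed no call. SLC7A6, the exchanger y+LAT2 of cationic for neutral amino acids, averaged 582 ± 117 normalized counts untreated and 1060.1 ± 261 treated (SD, n = 4) with no overlap between groups. Its adjusted p was 0.0226 but its log2 fold change, 0.86 (standard error 0.21), stayed under the threshold. SLC7A7, which encodes the related y+LAT1, had 32.0 to 67.0 normalized counts untreated and 19.2 to 43.7 treated (log2 fold change -0.41). SLC7A10, a carrier of alanine and serine, had 6.09 to 14.8 and 2.40 to 17.1. SLC7A8, or LAT2, lay under the filter, with 3.48, 0.673, 59.4 and 18.3 normalized counts untreated and 3.57, 4.28, 23.0 and 7.21 treated. SLC7A6OS, the gene opposite SLC7A6, had 847 to 1035 and 883 to 1003 normalized counts, and its log2 fold change of 0.04 (95% interval -0.20 to 0.28) was below 0 under total scaling.

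The cationic amino acid carriers of SLC7 work without a heavy chain and import arginine, lysine and ornithine. SLC7A1, the widely expressed carrier CAT1, had 1290.3, 1715, 5895 and 2239 normalized counts untreated and 7338, 7924, 11448 and 10107 treated. All treated libraries exceeded all untreated ones, and horse L again had the highest untreated value. The means were 2785 ± 2109 and 9204 ± 1912 (SD, n = 4), and SLC7A1 rose by 1.96 on the log2 scale (standard error 0.43, adjusted p = 0.0145). Leaving out horse D or W ended the call (adjusted p = 0.0724 and 0.0984). With the horse as a block it was called with any horse left out (adjusted p = 0.0349 and 0.0448 without D and W). SLC7A3, or CAT3, had almost no reads without treatment, and since it could be tested only because its treated libraries were high, its p is given as a description. Untreated libraries of D, J, L and W held 0, 2.02, 63.1 and 1.01 normalized counts, which were 0, 3, 67 and 1 reads, and treated ones 134.6, 93.1, 331 and 388. Horse L alone had more than 3 reads without treatment, and every treated library was above it. SLC7A3 rose by 5.50 on the log2 scale (standard error 1.21, adjusted p = 0.0152), a size that depended on the pseudocount of 1 and was 4.24 with a pseudocount of 5. The call was lost with horse D or W left out (adjusted p = 0.0849 and 0.110) and with edgeR (adjusted p = 0.0768). SLC7A4, a relative of these carriers, had 5.39 to 50.5 normalized counts untreated and 13.9 to 51.7 treated, with a log2 fold change of 0.73 (adjusted p = 0.491).

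**Figure D2:**
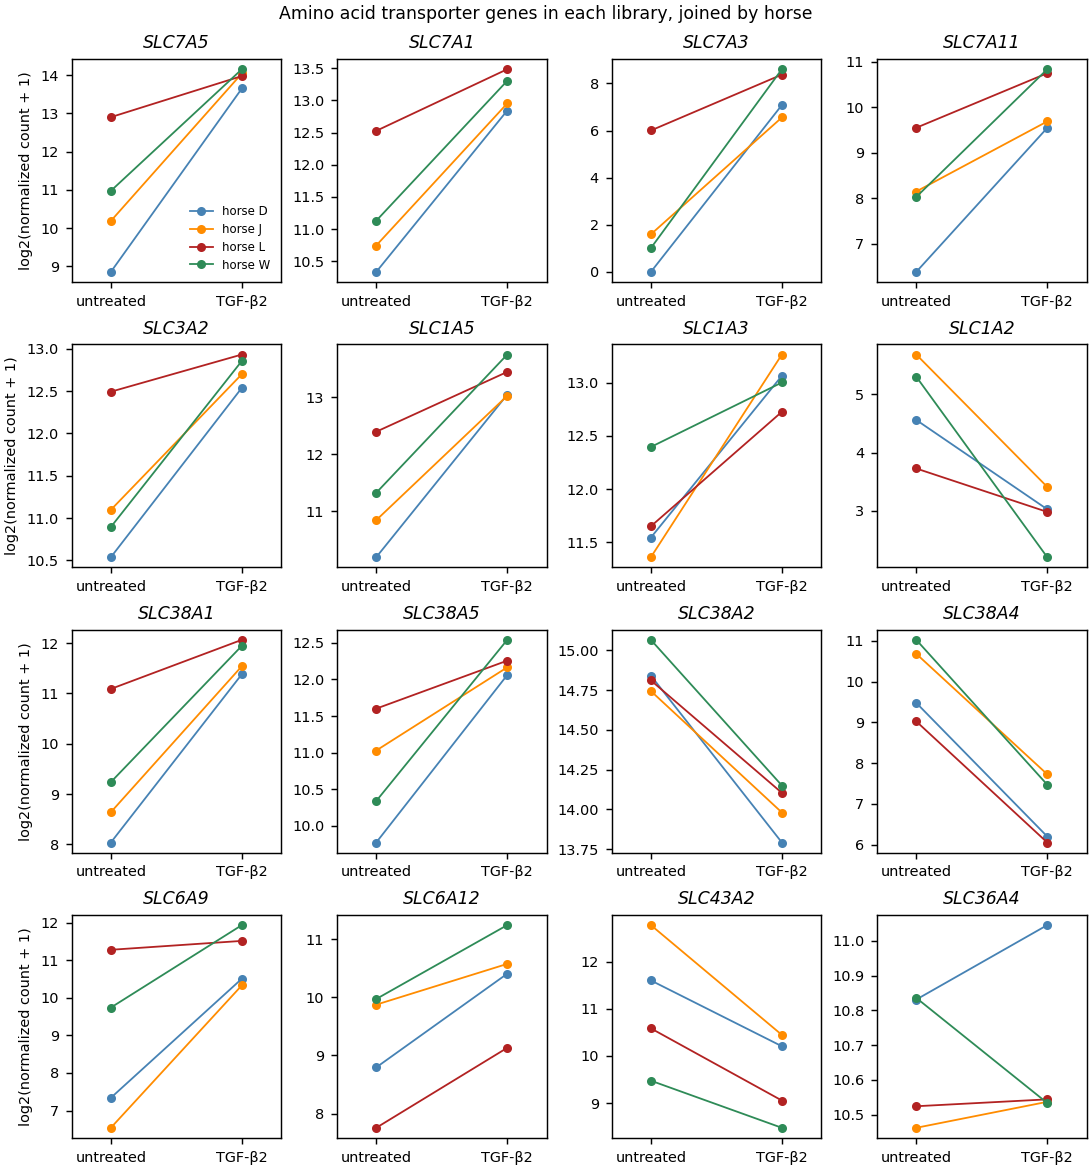
Level of 16 transporter genes in each library, as log2(normalized count + 1) on a scale of its own in each panel, with a line joining the untreated and TGF-β2-treated library of each horse. Horse L, in dark red, starts highest and has the flattest line in most panels that rise, and SLC38A4 and SLC38A2 fall in all 4 horses.

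In the SLC1 family, which couples transport to sodium, 2 of 4 genes were called higher and 1 lower. SLC1A5, the neutral amino acid exchanger ASCT2 and a main route of glutamine, had 1172, 1839, 5387 and 2564 normalized counts untreated and 8456, 8339.8, 11146 and 13764 treated, in horses D, J, L and W. The groups did not overlap. The means were 2740.4 ± 1854 and 10426 ± 2575 (SD, n = 4), and the log2 fold change was 2.13 (standard error 0.42, adjusted p = 0.0104). The call was lost with horse D or W left out (adjusted p = 0.0511 and 0.0758). With the horse as a block SLC1A5 was called with any horse left out (adjusted p = 0.0328 and 0.0469 without D and W). SLC1A3, the glutamate and aspartate transporter GLAST, had 2982, 2623, 3209 and 5387 normalized counts untreated and 8577, 9853, 6779 and 8208 treated. In this gene horse W, and not L, had the highest untreated level and the smallest change. SLC1A3 rose by 1.28 on the log2 scale (standard error 0.22, adjusted p = 0.00650), a call that was lost with horse D left out (adjusted p = 0.0646). SLC1A4, the alanine, serine and cysteine carrier ASCT1, had 2241 ± 823 and 4362 ± 1753 normalized counts (SD, n = 4), higher in each treated library than in its untreated pair, and its log2 fold change was 0.94 (adjusted p = 0.0760).

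SLC1A2, the glutamate transporter GLT-1 that is best known from astrocytes, fell from a low level. It had 22.6, 50.5, 12.2 and 38.6 normalized counts untreated and 7.15, 9.64, 6.90 and 3.60 treated. No treated library reached the lowest untreated one, and the last of these values stands for the floor of 3 reads. SLC1A2 fell by 1.92 on the log2 scale (standard error 0.49, adjusted p = 0.0258), a value that describes a gene tested only because its untreated libraries were high enough. With horse D or W left out the adjusted p was 0.111 and 0.154. With the horse as a block it was called, and it was lost there with horse D, J or W left out (adjusted p = 0.0869, 0.0515 and 0.0967). The untreated library of horse J, with the highest leukocyte marker sum, also had the highest SLC1A2 level. That of horse L, next in this sum at 1044, had the lowest untreated SLC1A2 level. The part of other cells in the SLC1A2 result was not tested.

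The SLC38 family, the sodium-coupled neutral amino acid transporters, divided between genes that rose and genes that fell. SLC38A1, a carrier of glutamine, had 262, 398, 2176 and 603 normalized counts untreated and 2666, 2978, 4280.0 and 3942 treated, in horses D, J, L and W. The treated libraries were all higher, and horse L was highest in each group. The means of SLC38A1 were 860 ± 889 and 3466 ± 768 (SD, n = 4). Its log2 fold change was 2.48 (standard error 0.58, adjusted p = 0.0185), lost with horse D, J or W left out (adjusted p = 0.0846, 0.0559 and 0.113) and with edgeR (adjusted p = 0.0513). With the horse as a block SLC38A1 was called (adjusted p = 0.00925), and it was lost there with horse W left out. SLC38A5, which carries glutamine, histidine and serine, had 874, 2089.8, 3108 and 1296 normalized counts untreated and 4272, 4595, 4895 and 5963 treated. Again no treated library reached down to the untreated range. SLC38A5 rose by 1.57 on the log2 scale (standard error 0.35, adjusted p = 0.0165), a call lost with horse D or W left out (adjusted p = 0.0625 and 0.117).

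SLC38A4 showed the largest decrease of the transporter genes. The protein, SNAT4, carries neutral and cationic amino acids and is best known from liver and placenta. Its untreated libraries held 713, 1641, 520.1 and 2081 normalized counts, and its treated libraries 72.7, 211, 65.5 and 177. The groups were far apart, and the fall had nearly the same size in every horse, at -3.28, -2.95, -2.97 and -3.55 on the log2 scale in D, J, L and W. The untreated mean of 1239 ± 745 was 9.42 times the treated mean of 131 ± 73.4 (SD, n = 4). SLC38A4 fell by 3.19 on the log2 scale (standard error 0.55, adjusted p = 0.00620, and 9.72e-04 with the block). It was called in all 22 alternative settings, those without 1 horse included.

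SLC38A2 was the transporter gene with the most reads in untreated cells. It encodes SNAT2, a carrier of alanine, glutamine and proline that cells are known to raise when amino acids are short. It had 29338, 27435.5, 28738 and 34292 normalized counts untreated and 14179, 16158, 17603 and 18176 treated. Every treated library lay below every untreated one, and the replicates were close within each group. The means were 29951 ± 3001 and 16529 ± 1782 (SD, n = 4). The log2 fold change of SLC38A2 was -0.86 (standard error 0.12, 95% interval -1.14 to -0.58, adjusted p = 0.00275), so it passed the p but not the fold change threshold. SLC38A9, a lysosomal arginine sensor of mTORC1, had 1077 ± 123 and 868 ± 21.1 normalized counts (SD, n = 4), lower without overlap, with an adjusted p of 0.0780. SLC38A6 and the lysosomal glutamine carrier SLC38A7 had log2 fold changes of -0.41 and -0.31, and SLC38A10 had -0.03 with a 95% interval of -0.28 to 0.21. Their adjusted p values were 0.0833, 0.289 and 0.852. Added up, the SLC38 genes went from 46576 ± 3592 to 36553 ± 3781 normalized counts and the SLC7 genes from 7583 ± 5748 to 28854 ± 4431 (SD, n = 4). The mean of SLC38A2 alone fell by more than the SLC38 sum, while SLC38A1 and SLC38A5 rose.

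No gene of the SLC6 family, the carriers coupled to sodium and chloride, was called by limma without the block, where 1 of 6 was higher and 1 lower at an unadjusted p under 0.05. DESeq2 without the horse and edgeR called 0 of them, and limma and DESeq2 with the horse called 2 higher. SLC6A9, the glycine transporter GLYT1, had 161, 92.2, 2477 and 853 normalized counts untreated and 1454, 1287, 2919 and 3906 treated, in horses D, J, L and W. Levels rose strongly in D, J and W and little in L, whose untreated library was above 2 of the treated ones. For SLC6A9 the log2 fold change was 2.35 (standard error 0.98), and the adjusted p was 0.122 without the block and 0.0312 with it. With the block it lost the call when horse D or W was left out (adjusted p = 0.125 and 0.116). SLC6A12, the betaine and GABA transporter BGT1, had 443, 938, 215 and 1003 normalized counts untreated and 1358, 1527, 559.9 and 2427 treated. The groups overlapped because the horses differed, while every horse rose, by 1.61, 0.70, 1.38 and 1.27 on the log2 scale. The adjusted p of SLC6A12 was 0.162, and 0.00613 under the block, for a log2 fold change of 1.24, and with the block it was called with any horse left out.

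SLC6A8, the creatine transporter and the SLC6 gene with the most reads, had 2613, 1926, 3558 and 2826 normalized counts untreated and 2823, 3701, 3718 and 4394 treated. The ranges overlapped, and the log2 fold change was 0.44 (95% interval -0.02 to 0.90, adjusted p = 0.155). The taurine transporter SLC6A6 had 517 ± 286 and 401 ± 304 normalized counts (SD, n = 4), and the GABA transporter SLC6A13 had 93.4 ± 22.4 and 74.9 ± 11.4. SLC6A17, a neutral amino acid carrier known from synaptic vesicles, had 2418 ± 779 and 1471 ± 194, and its log2 fold change was -0.66 (adjusted p = 0.0803). None of these passed a call with or without the block.

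The SLC36 family was represented by SLC36A4, a high-affinity carrier of proline and tryptophan. Its untreated libraries held 1821, 1409.8, 1472 and 1827 normalized counts and its treated ones 2113, 1485, 1492 and 1481. The groups overlapped. SLC36A4 had a log2 fold change of 0.00 (95% interval -0.35 to 0.35, adjusted p = 0.995), and its sign turned under total scaling, where it was -0.31. In the SLC43 family SLC43A2, the LAT4 carrier that lets branched-chain amino acids pass without exchange, had 3109, 7019, 1535 and 710.2 normalized counts untreated and 1179, 1394, 530.0 and 354 treated, in D, J, L and W. The horses spanned a wide range, with J highest in each group, and the level fell in all 4, by 1.40, 2.33, 1.53 and 1.00 on the log2 scale. With a log2 fold change of -1.57 (standard error 0.72), SLC43A2 was not called by limma without the block (adjusted p = 0.154) and was called lower with it (adjusted p = 0.00681). DESeq2 called it lower without the horse too, at a log2 fold change of -1.84 (adjusted p = 0.0232), and edgeR did not (adjusted p = 0.104). The untreated library of horse J also had the highest leukocyte sum, while that of horse D, with the lowest sum of 668, was next in SLC43A2. Without horse J the log2 fold change of SLC43A2 was -1.31, called with the block (adjusted p = 0.00294) and not called without the block. The part of other cells in the SLC43A2 result was not tested. SLC43A1, the related LAT3, had 311 ± 54.9 and 453 ± 84.0 normalized counts (SD, n = 4), and its log2 fold change was 0.54 (adjusted p = 0.0788). SLC43A3, a nucleobase transporter of the same family, lay under the filter. It had 3.48 normalized counts, or 4 reads, in the untreated library of horse D and 0 in the other untreated ones, and 35.7, 97.4, 5.75 and 8.41 in the treated ones. With no filter on low values it was called higher (log2 fold change 3.91, adjusted p = 0.0219).

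**Figure D3:**
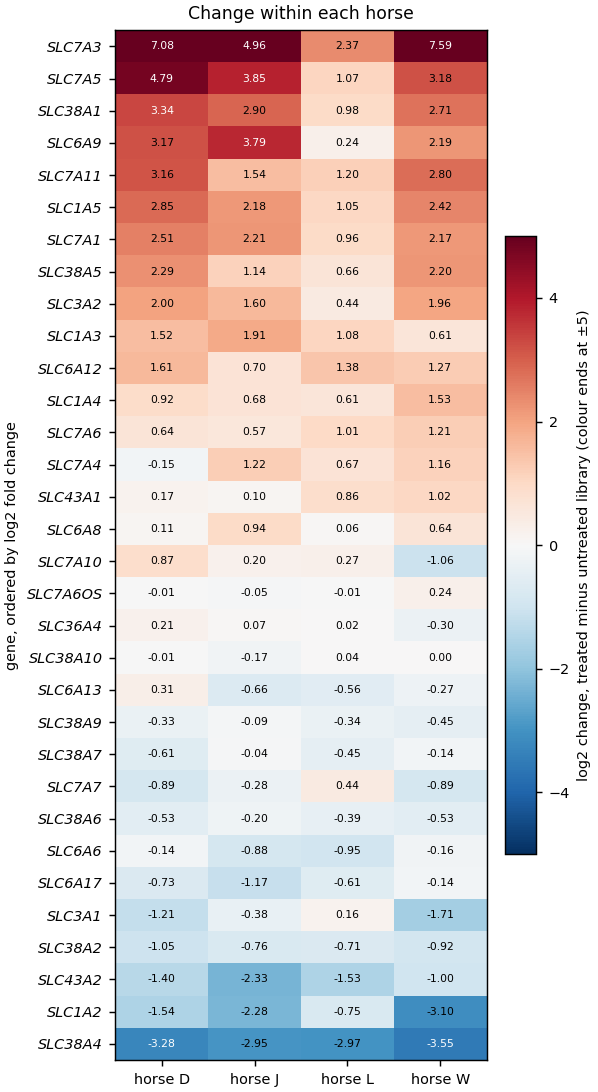
Log2 change of the normalized count plus 1, treated minus untreated library of the same horse, for the 32 genes tested, ordered by log2 fold change, with red for higher and blue for lower. In the upper rows the column of horse L is paler than those of D, J and W (1.07 against 3.18 to 4.79 for SLC7A5), while SLC38A4 at the bottom changed by -2.95 to -3.55 in every horse.

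Horse L stood apart in the transporter genes that rose. Its untreated library was the highest of the 4 untreated libraries in 8 of the 9 genes called higher (88.9%), and the same held for 46.3% of all 834 genes called higher. Horse L had the smallest change in 8 of the 9 genes, against 37.8% of the 834. These counts are not independent, since a higher untreated level makes the change smaller. SLC7A3, tested only because its treated libraries were high, is among the 9 genes. The median log2 change over the 9 genes was 1.05 in horse L and 2.85, 2.18 and 2.42 in D, J and W. Over all 834 genes called higher the medians were close to each other, at 1.94, 1.76, 1.71 and 1.96 in D, J, L and W. Among the treated libraries, horse L was the highest in SLC7A1, SLC3A2 and SLC38A1 and the lowest in SLC1A3. Without horse L the calls were again 9 higher and 2 lower, and they were the same 11 genes.

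The summed level of the amino acid starvation response genes was also highest in the untreated library of horse L among the untreated ones. It was 85099 normalized counts, against 42501, 42888 and 51786 in horses D, J and W, and the treated libraries held 72982 to 103753. Of the 17 genes of that list, 3 were called higher and 0 lower (5.59% and 5.87% of all genes), with 7 higher and 1 lower at an unadjusted p under 0.05. DESeq2 without the horse called 3 higher, with ATF5 in place of ATF4, and edgeR 1, each with 0 lower. Under the block 6 were higher (6.83% of all genes), adding ATF5, TRIB3 and CHAC1. Each of these added genes lost the block call with horse D or W left out (adjusted p = 0.0747 to 0.176). ATF5 also lost it without L (adjusted p = 0.0566) and CHAC1 without J (adjusted p = 0.0523). ASNS, the asparagine synthetase and a target of ATF4, had 601, 615, 7257 and 2548 normalized counts untreated and 8662, 6359, 13721 and 14505 treated. Again horse L was far above the other untreated libraries, and the log2 fold change was 2.66 (adjusted p = 0.0406). For ATF4 the means were 11797 ± 6313 and 23576 ± 4504 normalized counts (SD, n = 4), and it rose by 1.11 on the log2 scale (adjusted p = 0.0405). ATF4 and ASNS were lost with horse D, J or W left out (adjusted p = 0.0769 to 0.181) as well as with edgeR (0.0657 and 0.110) and without the trend (0.0538 for each), and ATF4 also with DESeq2 without the horse and under total scaling, at log2 fold changes of 0.997 and 0.80. PPP1R15B, a regulator of the phosphatase that restores translation, rose by 1.36 (adjusted p = 0.00172) and held with any horse left out. The part of this response in the transporter levels of horse L was not tested.

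The make-up of the transporter transcripts changed along with the levels. Summed over the 34 genes, normalized counts were 65754, 73558, 93575 and 78829.6 in untreated and 92481, 102680 and 113275 in treated cells of D, J and L and 123557 in those of W. The untreated sum of horse L was above the treated sum of D. The total normalized counts of all named genes were also larger in the treated library of every horse. As a share of reads assigned to named genes, the 34 genes held 0.171, 0.191, 0.223 and 0.194% in untreated cells of D, J, L and W. In treated cells they held 0.198, 0.226, 0.211 and 0.233%, so the share fell in horse L. SLC38A2 made up 39.0 ± 6.41% of these counts in untreated cells and 15.3 ± 0.444% in treated cells (SD, n = 4). SLC7A5 went from 3.25 ± 3.37% to 14.8 ± 1.13%, SLC1A5 from 3.32 ± 1.73% to 9.56 ± 1.27% and SLC7A1 from 3.36 ± 1.99% to 8.49 ± 1.10%. Such shares are of reads and depend on transcript length as well as number, so they are compared between groups and not between genes. In the shares of SLC38A2, SLC7A5, SLC1A5 and SLC7A1 the treated libraries resembled each other more than the untreated ones did. For some other genes, SLC1A3, SLC1A4 and SLC7A11 among them, the SD of the share was larger in treated cells.

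**Figure D4:**
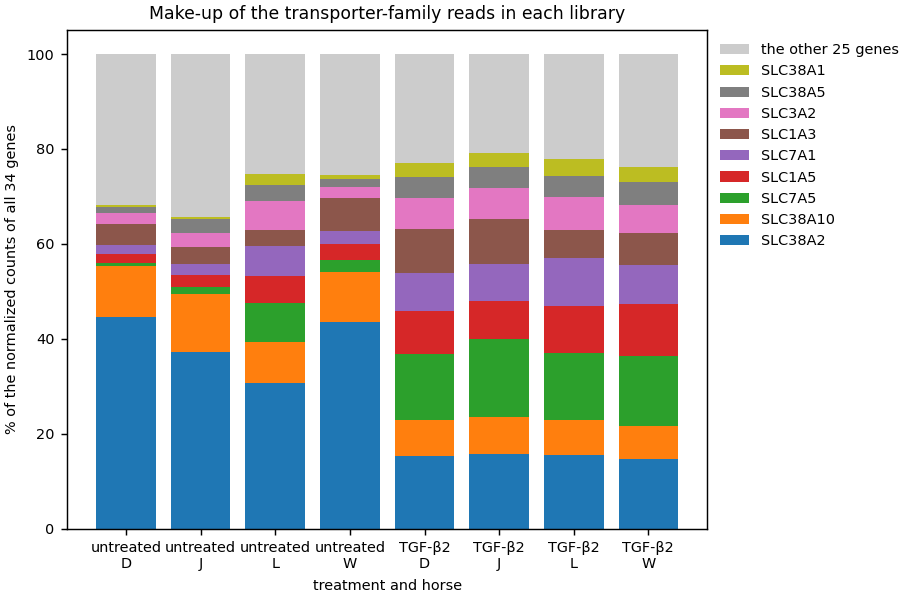
Make-up of the transporter-family counts in each library, as a percent of the summed normalized counts of all 34 genes, with 9 genes in colour and the other 25 in grey. SLC38A2 at the base goes from 30.7 to 44.6% in the untreated libraries to 14.7 to 15.7% in the treated ones, and SLC7A5 in green widens from 0.704 to 8.17% to 13.9 to 16.4%.

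Ratios of 2 genes within a library do not depend on how libraries are scaled. The 4 pairs given here were chosen after the values were seen, so the ratios are a description with no test. The ratio of SLC7A5, the LAT1 light chain, to SLC3A2, its heavy chain, was 0.312, 0.533, 1.33 and 1.06 in untreated and 2.16, 2.54, 2.06 and 2.46 in treated cells of D, J, L and W. It was higher after treatment in every horse, by 2.79, 2.25, 0.63 and 1.21 on the log2 scale. The ratio of the cystine exchanger's SLC7A11 to SLC3A2 went from 0.113 ± 0.0384 to 0.179 ± 0.0634 (SD, n = 4), with the groups overlapping and no increase in horse J. SLC7A1, which needs no heavy chain, was also higher relative to SLC3A2 in 4 of 4 horses, by 0.21 to 0.60 on the log2 scale. The ratio of the glutamine carriers SLC38A1 and SLC38A2 was 0.00893, 0.0145, 0.0757 and 0.0176 in untreated and 0.188, 0.184, 0.243 and 0.217 in treated cells. Within horses it was higher by 4.40, 3.67, 1.68 and 3.62 on the log2 scale in D, J, L and W.

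**Figure D5:**
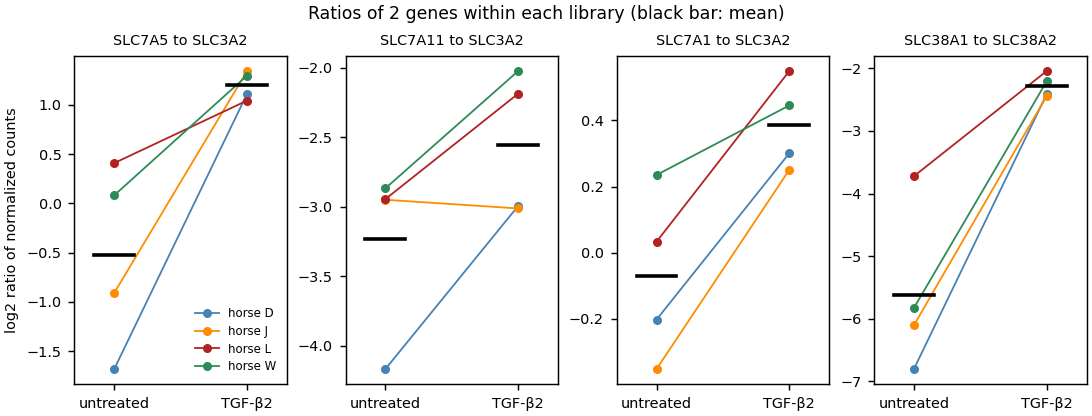
Log2 ratio of the normalized counts of 2 genes in each library, with lines joining the libraries of a horse and black bars at the group means, each panel on its own scale. The ratio of SLC7A5 to SLC3A2 was higher after treatment in all 4 horses, that of SLC7A11 to SLC3A2 in 3 of 4, and horse L had the highest untreated ratio of SLC38A1 to SLC38A2.

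Genes that use the carried amino acids or sense them were counted for comparison, where 5.59% of all genes were called higher and 5.87% lower. Of 34 mTORC1 amino acid sensing genes tested, 0 were higher and 1 was lower, with 3 higher and 9 lower at an unadjusted p under 0.05, and DESeq2 and edgeR called 0 higher and 2 and 1 lower. The gene called lower was CASTOR2, a relative of the arginine sensor CASTOR1, with means of 5387 ± 2046 untreated and 2061 ± 433 treated (normalized counts, SD, n = 4), and it fell by 1.34 on the log2 scale (adjusted p = 0.00904). It was lost with horse W left out (adjusted p = 0.0721). Among 12 enzymes of glutamine and glutamate metabolism, 1 was higher and 2 were lower, and under the block GPT2 was added to the higher ones. GLUL, the glutamine synthetase that makes glutamine from glutamate, had 7843, 16298, 3742 and 5313 normalized counts untreated and 1992, 2709.6, 1727 and 1109 treated. It fell in every horse without overlap, by 1.99 on the log2 scale (adjusted p = 0.0169), and lost the call with horse D or W left out (adjusted p = 0.102 and 0.0822). With the horse as a block GLUL was called with any horse left out. GFPT2 and GFPT1, which use glutamine to make hexosamines, went in opposite directions, with log2 fold changes of -2.25 and 1.13 (adjusted p = 0.00654 and 0.00650). Both were lost with horse D left out (adjusted p = 0.0600 for each), and GFPT1 also with J left out and under total scaling, at log2 fold changes of 0.96 and 0.82.

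Among 9 enzymes of arginine and polyamine metabolism tested, 3 were higher and 1 was lower, against 5.59% and 5.87% of all genes. ODC1, ornithine decarboxylase and the entry to polyamine synthesis, rose from 5425 ± 2729 to 15383 ± 2247 normalized counts (SD, n = 4), by 1.61 on the log2 scale (adjusted p = 0.00693). ARG2, the mitochondrial arginase that supplies ornithine, rose from 1168 ± 636 to 3266 ± 757 (log2 fold change 1.60, adjusted p = 0.0171). SRM, spermidine synthase, was the other higher gene, with a log2 fold change of 1.503 (adjusted p = 0.00476), lost with horse W left out (adjusted p = 0.0505). GATM, which starts creatine synthesis from arginine, fell by 2.51 (adjusted p = 0.0416). ODC1 and ARG2 were lost with horse D or W left out (adjusted p = 0.0528 to 0.104), and GATM with D, L or W left out (adjusted p = 0.0543 to 0.170).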

How the data were processed

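RNA-seq was analysed in 8 libraries of equine BM-MSCs. The authors used Trimmomatic 0.36 for trimming, STAR 2.5.2b for alignment to EquCab 3.0 and featureCounts (Subread 1.5.2) for unique hits per gene, and deposited DESeq2-normalized counts, a signal that is never negative. Dividing each deposited value by the value of 1 read gave whole reads (tolerance 0.1) for 100% of values. The row without a gene name (0.0281% to 0.0531% of reads) was left out.

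A gene was tested if 4 or more libraries held at least 10 normalized counts, on log2(normalized count + 1) with limma 3.58.1 (trend, R 4.3.3) without a term for the horse, since the study's methods name none. The scale understates changes of genes with few reads. Libraries of the same horse, paired by the labels, deviated together from their group means (mean correlation across genes 0.480, range 0.386 to 0.609). Between horses the mean was -0.159, a value largely fixed by subtracting the group means. The horse as a block was an alternative. Other alternatives left out each horse in turn, dropped the filter or raised it to 50, set the pseudocount at 0.5 or 5, scaled libraries by TMM, upper quartile or total, omitted the trend or the fold change threshold, lowered the adjusted p to 0.01, or used edgeR 4.0.16 or DESeq2 1.42.0 on the recovered reads. The block with a horse left out, the limit of 2 libraries in each group and the 4 ratios were added after the values were seen. Described in full were genes called with or without the block, SLC3A1 and SLC3A2, and the gene with the most reads in each family. Of each other list at most 3 called genes with the largest change were to be named. Markers, SRM, SLC25A22 and genes called with the block alone were named after their values were seen. The transporter genes and lists were chosen with earlier results of these data known. Procedures were tested on simulated data. Sequences and coordinates were not used here.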

Additional observations from a re-analysis of the deposited data

Results flagged for a closer look

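In 112 groups of 4 libraries, the highest or lowest value stood apart from the other 3 in 5 by Dixon's criterion on the log2 scale, where chance gives about 1 in 20. All 5 are transporter genes. SLC6A13 had 57.8 normalized counts in the treated library of horse J, below 79.8 to 81.7 in the other treated libraries. SLC7A4 had 13.9 in the same library, below 42.05 to 51.7. SLC7A10 had 2.40 in the treated library of horse W, under the floor of 3 reads, with 13.8 to 17.1 in the others. SLC36A4 had 2113 in the treated library of horse D, above 1481 to 1492. SLC43A3 had 3.48 in the untreated library of horse D and 0 in the other untreated libraries. None of these 5 genes was called in the main comparison.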

How the results depend on the processing

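Of 699 values of single genes under 22 alternative settings, 610 kept their direction and side of the threshold, 52 lost a call, 22 gained one and 15 changed sign. None of the 241 values of the 11 called genes changed sign. The 9 higher genes became 1 at an adjusted p under 0.01 and 5 with edgeR, and the 2 lower genes became 1 at an adjusted p under 0.01 and 1 with a filter at 50. With 1 horse left out and no block, higher calls ran from 0 (without D, with 11 at an unadjusted p under 0.05) to 9 (without L), with 5 without J and 1 without W, and lower calls from 1 to 2. With the replicate block, a pairing given by the labels, higher calls were 11. With all horses in, the block changed no call other than those of SLC6A9, SLC6A12 and SLC43A2. With the block and horse D, J, L or W left out, a choice made after seeing the data, higher calls were 5, 12, 12 and 4. There SLC7A1, SLC1A5 and SLC38A4 kept the call with any horse left out. SLC1A3 lost it without D, SLC7A11 and SLC38A1 without W, and SLC7A5, SLC7A3, SLC3A2 and SLC38A5 without D or W. The fits with a horse left out held 3 horses. Calls over all genes without D, J, L and W and no block were 718, 1899, 1300 and 795, against 1709 with all horses. With the block they were 1173, 2442, 1875 and 1080, against 2108. Calls over all genes thus rose without J, while the higher transporter calls without J and no block fell from 9 to 5.

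Sign changes were near 0. SLC7A6OS was -0.27 under total scaling and ran from -0.0227 to 0.0739 with a horse left out, with -0.0227 under the block without W. SLC7A10 was -0.20 under total scaling and -0.20 to 0.44 with a horse left out, with -0.20 under the block without D. SLC36A4 was -0.31 under total scaling and -0.0693 to 0.10 with a horse left out, with -0.0693, -0.0228 and -0.00448 under the block without D, J and L. SLC38A10 ran from -0.0584 to 0.0101 with a horse left out, with 0.0101 under the block without J. Of 484 values of the 22 genes of other lists called with or without the block, 58 lost a call, 26 gained one and 0 changed sign. Losses given above for these lists with a horse left out are from fits without the block, unless the block is named. Under the block CASTOR2, GLUL, GFPT2, SRM, GATM and SLC15A3 kept the call with any horse left out. ATF4, ASNS, GFPT1, ODC1, ARG2, CTH and MFSD12 did not. At this depth genes near the floor of 3 reads, SLC7A3, SLC7A8, SLC7A10, SLC1A2 and SLC43A3, have fold changes that rest on few reads.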

Other observations

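Amino acid transporters of other families were looked at as well. Of 12 tested, 3 were higher and 1 was lower by limma, where 5.59% and 5.87% of all genes were, and DESeq2 and edgeR gave the same counts. SLC25A15, the mitochondrial ornithine carrier, rose from 608 ± 178 to 1508 ± 278 normalized counts (SD, n = 4), by 1.33 on the log2 scale (adjusted p = 0.00518 from limma), and it held with any horse left out. SLC25A22, a mitochondrial glutamate carrier, rose by 1.15 (adjusted p = 0.00197) and was lost under total scaling at 0.84. MFSD12, which carries cysteine into lysosomes and melanosomes, rose by 1.23 (adjusted p = 0.00837), and was lost with horse D, L or W left out (adjusted p = 0.0662, 0.0515 and 0.0702) and under total scaling at 0.92. SLC15A3, a lysosomal carrier of histidine and peptides that macrophages express, had 323, 3928, 219.6 and 896 normalized counts untreated and 51.2, 78.2, 31.0 and 82.9 treated in horses D, J, L and W. Untreated cells of horse J were far above the rest, in the library that also had the highest sum of leukocyte markers. Horse L, next in that sum at 1044, had the lowest untreated SLC15A3 level. The log2 fold change was -3.62 (adjusted p = 0.0182), lost with horse D or W left out (adjusted p = 0.0756 and 0.0969). Without horse J it was still called, and the part of other cells was not tested.

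Among 10 enzymes of cysteine and glutathione metabolism, CTH, which makes cysteine from cystathionine, was the 1 called higher and GGT5, which cleaves extracellular glutathione conjugates, the 1 called lower. GGT5 had 76.6 to 197 normalized counts untreated and 1.20 to 6.90 treated, all under the filter of 10, so it was tested only because its untreated libraries were high. Its log2 fold change was -4.71 (adjusted p = 0.00124) and depended on the pseudocount, with -3.81 at a pseudocount of 5 and -4.91 at 0.5. CTH had 258.5 to 517 untreated and 730.1 to 1100.5 treated normalized counts, without overlap, with a log2 fold change of 1.15 (adjusted p = 0.0199) that was lost with horse D or W left out (adjusted p = 0.104 and 0.0620) and under total scaling at 0.84. Of 9 enzymes of branched-chain amino acid breakdown, limma called 0, with 1 higher and 3 lower at an unadjusted p under 0.05, and DESeq2 without the horse and edgeR also called 0. With the horse as a block BCAT1, the cytosolic transaminase of leucine, isoleucine and valine, was called higher. Its untreated libraries held 114, 881, 3927 and 136 normalized counts and its treated ones 3005, 4064, 5948 and 2998, with horse L again the highest untreated library. The adjusted p was 0.0720 without the block and 0.0296 with it. Under the block BCAT1 lost the call with horse D or W left out (adjusted p = 0.109 and 0.1245).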
